A study of Mus musculus with 6 samples.

Results

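The semaphorin, ephrin, Slit and netrin genes and their receptors were described in NOR-10 cells, a mouse fibroblast line from skeletal muscle, after exposure to D-galactose (D-gal), a sugar used to induce cellular senescence. The genes were chosen by symbol: semaphorins of classes 3 to 7, plexins, neuropilins, ephrins, Eph receptors, Slits, Robo receptors, Unc5 receptors, Ntn1, Dcc and Neo1. This rule took 70 of the 34745 genes in the deposited table. Of these, 67 code for a ligand (32) or a receptor (35), and the other 3 are the antisense RNAs Plxna4os1, Plxna4os2 and Plxna4os3. RNA-seq had been performed on 3 control libraries, from cells given PBS, and 3 D-gal libraries, from cells given D-gal, which the study's methods put at 20 mg/mL for 3 days. All 6 libraries came from this cell line without any genetic change named in the labels, so the cells stand for a fibroblast culture and not for muscle tissue. The labels do not say whether replicates were separate cultures, so p-values set the group difference against a spread between libraries that may be technical.

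These genes are best known for steering growing axons and blood vessels. Semaphorins signal through plexins, and most secreted semaphorins of class 3 need a neuropilin as co-receptor. Ephrins are bound to the membrane of the cell that makes them and act on Eph receptor tyrosine kinases of a neighbouring cell: A ephrins carry a GPI anchor and mainly bind EphA receptors, and B ephrins span the membrane and mainly bind EphB receptors. Slits are secreted and bind Robo receptors, while netrin 1 binds Dcc, neogenin (Neo1) and the Unc5 receptors. In connective tissue cells the same proteins act on the cytoskeleton, on adhesion and on the spacing between cells.

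Under D-gal, Nrp2, Epha2, Plxna1 and the B ephrin Efnb2 rose, whereas Slit3 and the plexins Plxnd1, Plxna2, Plxna3, Plxna4 and Plxnb1 fell. Plxnb2, the most abundant plexin, did not change beyond its spread, and Sema5b went from nearly no reads to a low level. A gene is called here when its edgeR quasi-likelihood test gave an adjusted p under 0.05 over all genes tested. Of the 70 genes, 51 passed the filter on low counts, and 22 of these were called, 8 higher and 14 lower under D-gal. This is 43.1% of the guidance genes tested, and among all 13407 genes tested 34.8% were called, 16.9% higher and 17.8% lower. In 26 of the 51 genes the libraries of both groups did not overlap, whereas 49.1% of all genes tested had no overlap, so the guidance genes as a whole stood near the background. In 3 guidance genes, Sema5b, Plxna4 and Robo3, the log2 fold change was also 1 or more in either direction, and 4.21% of all genes tested passed both thresholds. Sema5b passed the filter on low counts only through its D-gal libraries, so its call and its place in these counts follow in part from the filter. The median log2 fold change was -0.07 over the 51 genes and 0.0036 over all genes tested. Library totals were 16876087 to 20830349 counts in the controls and 13759108 to 15157064 counts under D-gal, so every D-gal library was shallower than every control.

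Levels below are normalized counts, that is counts scaled to a common library size, and they compare libraries, not genes. In cultures read in bulk, fewer cells that express a gene and less RNA per cell cannot be told apart. Among fibroblast markers, Pdgfra had 10340 ± 47.5 normalized counts in the controls and 9757 ± 312 under D-gal (SD, n = 3), and Col1a1 had 39310 ± 886 and 24060 ± 801, while Lum was close to 0. The 10 fibroblast markers summed to 118100 to 121400 in the controls and 75110 to 77160 under D-gal, and of the 9 tested 7 were lower and 0 higher. Most of this sum was Col1a1, Col1a2 and Vim. Col1a2 had 35910 ± 1058 normalized counts in the controls and 18330 ± 954 under D-gal, and Vim 22150 ± 859 and 15700 ± 1049 (SD, n = 3). The fall of this sum accompanies every result given here, and its part in the results was not tested. Myf5, Myod1 and Pax7, which define muscle precursors, had 0 counts in every library, and the 8 myogenic markers summed to 89.8 to 102 in the controls and 61.7 to 67.5 under D-gal. Sums of the 6 endothelial markers were 57.9 to 58.6 against 50.5 to 86.3, of the 8 nerve and glia markers 437.5 to 491.2 against 397.3 to 431.3 with Rbfox3 at 0, of the 6 immune markers 70.7 to 285 against 74.1 to 96.1 with Cd3e at 0, and of the 6 pericyte markers 7675 to 8035 against 8862 to 9418. Of the pericyte markers, Pdgfrb made up most of the sum and rose from 6897 ± 175 to 7893 ± 182 normalized counts (SD, n = 3). Notch3 rose from 771.9 ± 19.8 to 1163 ± 98.1, while Rgs5 fell from 194.3 ± 3.74 to 92.8 ± 3.18. The immune sum of 285 was that of Control 1. Raw counts in Control 1, 2 and 3 were 141, 38 and 16 for Csf1r and 167, 91 and 51 for Cd68.

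To show what lies upstream of the genes that moved most clearly, 200 bases ending at the gene start of the deposited table, or for Epha2 shortly before it, are given for 2 genes that rose, Nrp2 and Epha2, and 2 that fell, Plxnd1 and Plxna3. Of the 10 guidance genes with the smallest p, 6 had a RefSeq window reaching far enough before that start, and the genes shown have the largest rises and falls among these 6. Sema5b and Slit3, which changed more than Epha2 and Plxna3, were not among them. The windows are chr1:62703085-62703284 on the plus strand for Nrp2, chr4:141301021-141301220 on the plus strand for Epha2, chr6:115995006-115995205 on the minus strand for Plxnd1 and chrX:74328866-74329065 on the plus strand for Plxna3. The sequences are from RefSeq (GRCm38.p6) and read 5′ to 3′ along the gene's strand. Capitals mark matches, on either strand, to 6 motifs. The TATA box was searched as TATAAA and the GC box as GGGCGG. The AP-1 motif was searched as TGANTCA and the TEAD motif as GGAATG. The core of the NFAT motif was searched as TGGAAA and the E-box as CACGTG.
Nrp2: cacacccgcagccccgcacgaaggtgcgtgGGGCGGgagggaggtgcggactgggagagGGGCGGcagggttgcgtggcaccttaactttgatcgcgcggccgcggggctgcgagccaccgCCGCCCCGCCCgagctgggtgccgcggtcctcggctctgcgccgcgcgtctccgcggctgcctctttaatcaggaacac
Epha2: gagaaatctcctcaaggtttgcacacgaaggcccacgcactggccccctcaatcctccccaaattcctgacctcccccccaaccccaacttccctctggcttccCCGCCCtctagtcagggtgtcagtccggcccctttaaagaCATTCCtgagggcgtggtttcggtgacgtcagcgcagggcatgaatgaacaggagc
Plxnd1: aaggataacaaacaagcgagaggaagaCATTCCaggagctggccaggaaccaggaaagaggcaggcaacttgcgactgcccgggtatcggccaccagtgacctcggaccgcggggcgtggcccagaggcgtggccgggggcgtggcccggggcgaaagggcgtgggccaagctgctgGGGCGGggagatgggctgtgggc
Plxna3: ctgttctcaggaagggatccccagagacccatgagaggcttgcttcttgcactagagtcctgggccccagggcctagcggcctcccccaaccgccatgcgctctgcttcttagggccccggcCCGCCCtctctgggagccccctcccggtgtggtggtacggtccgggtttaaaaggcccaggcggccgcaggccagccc
The window of Nrp2 held 4 GC boxes, of which 2 overlap, and those of Epha2, Plxnd1 and Plxna3 held 1 each. Epha2, which rose, and Plxnd1, which fell, each held 1 TEAD motif, and none of the 4 windows held a TATA box, an AP-1 motif, an NFAT core or an E-box in these letters. The GC box was in 71.2% of the 73 windows of this length found for 57 of the 67 coding guidance genes, in 55.2% of the 12492 windows of genes tested and in 31% of all 32851 windows. The TEAD motif was in 8.22%, 8.45% and 10.1% of them, the TATA box in 2.74%, 4.82% and 9.96%, AP-1 in 2.74%, 3.68% and 5.48%, the NFAT core in 8.22%, 11.3% and 14.7%, and the E-box in 5.48%, 7.23% and 5.26%. Windows of guidance genes had a median GC content of 65.5%, and those of genes tested 61.5%. A match of letters is a description and no evidence of binding.

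Among the receptors, the clearest rise was that of Nrp2, neuropilin 2, a co-receptor of class 3 semaphorins and of VEGF-C (chr1:62703285-62818695, plus strand). Nrp2 had 2299, 2296 and 2150 normalized counts in the controls and 3799, 3958 and 3904 under D-gal. All D-gal libraries were far above all controls, and the change was a log2 fold change of 0.79 (SE 0.04, adjusted p = 9.03e-06), a rise of 72.9%. The other neuropilin, Nrp1, was also abundant and had 4442 ± 103 normalized counts in the controls and 4244 ± 59.8 under D-gal (SD, n = 3), with a log2 fold change of -0.07 that did not pass the test (adjusted p = 0.153). Sema3c and Sema3f, secreted semaphorins known to bind Nrp2, were both lower under D-gal, as given with the ligands. None of the other class 3 semaphorins tested was called. Vegfc, the gene of VEGF-C, went the other way, from 107 ± 15.9 to 200.1 ± 12.6 normalized counts (SD, n = 3). Its log2 fold change was 0.91 (adjusted p = 0.00123), so the ligands of Nrp2 did not all move in 1 direction.

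Plexins, the signalling receptors of semaphorins, were the family with the most genes called. Of 9 genes 7 were tested, 1 was higher and 5 lower, with a median log2 fold change of -0.52. This is 85.7% called, beside 34.8% of all genes tested (16.9% higher, 17.8% lower). The plexins tested had a median of 719.2 normalized counts, and 43.4% of all genes above 467.8 normalized counts were called. The difference between these shares was not tested. Plxnd1, the receptor of Sema3e, known for its part in vessel patterning (chr6:115954811-115995005, minus strand), had 956.8, 994.7 and 867.5 normalized counts in the controls and 537.6, 461.9 and 496.4 under D-gal. It fell by 47.0%, with a log2 fold change of -0.91 (SE 0.08, adjusted p = 9.80e-05). The groups did not come near each other, while its ligand Sema3e went from 395.1 ± 13.5 to 428.1 ± 24.2 normalized counts (SD, n = 3) and did not pass the test (adjusted p = 0.25).

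The 4 A plexins, which act with neuropilins as receptors of class 3 semaphorins or bind class 6 semaphorins, were all called, but not in the same direction. Plxna3 (chrX:74329066-74344689, plus strand) had 766, 825 and 801.8 normalized counts in the controls and 528.6, 575.5 and 560.3 under D-gal, a log2 fold change of -0.52 (SE 0.06, adjusted p = 0.000389). Plxna2 (chr1:194618218-194816869, plus strand) had 1247, 1147 and 1244 against 910.1, 881.2 and 985.7, a log2 fold change of -0.39 (SE 0.06, adjusted p = 0.00175). Both fell with no overlap between groups. Plxna4 (chr6:32144268-32588192, minus strand) was much scarcer, with 59.26, 60.38 and 88.87 normalized counts in the controls and 34.79, 27.3 and 22.89 under D-gal, a log2 fold change of -1.28 (SE 0.25, adjusted p = 0.00513). Its exons share 110 bases with the antisense RNA Plxna4os3 on the other strand, which like Plxna4os1 and Plxna4os2 was listed with 0 counts in every library. Plxna1 (chr6:89316314-89362620, minus strand), the most abundant of the 4, went the other way: it had 10700, 11160 and 10630 normalized counts in the controls and 12470, 12740 and 12680 under D-gal, a log2 fold change of 0.22 (SE 0.03, adjusted p = 0.000798). Of the bases of Plxna1, 970 overlap Gm26811 on the other strand. On either strand, 8.57% of its distinct words of 31 bases also occur in other genes, a share that includes words of this overlap. Part of the reads of Plxna1 is therefore uncertain.

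Of the B plexins, receptors of class 4 semaphorins, Plxnb1 fell and Plxnb2 did not change beyond its spread. Plxnb1 had 163.1 ± 12.3 normalized counts in the controls and 111 ± 9.24 under D-gal (SD, n = 3), with a log2 fold change of -0.56 (adjusted p = 0.00746), and 257 of its bases overlap Gm7628 on the other strand. Plxnb2 (chr15:89155549-89171120, minus strand) had 13930, 14870 and 14050 normalized counts in the controls and 14490, 14590 and 14560 under D-gal. These groups overlapped, and its log2 fold change of 0.03 had an SE of 0.03 (adjusted p = 0.551). Plxnb3 and Plxnc1 had at most 5 counts in any library and were not tested.

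The Eph receptors split in both directions: of 14 genes 8 were tested, 2 were higher and 2 lower. This is 50% called, beside 34.8% of all genes tested. Epha2, a receptor of A ephrins that is common in epithelial and mesenchymal cells (chr4:141301240-141329384, plus strand), had 2015, 1930 and 2023 normalized counts in the controls and 2720, 2800 and 2898 under D-gal. Its rise of 41.1% was a log2 fold change of 0.50 (SE 0.04, adjusted p = 6.86e-05), with all D-gal libraries above all controls. Epha1 also rose, from 483.9 ± 19.9 to 595.8 ± 56.3 normalized counts (SD, n = 3), with a log2 fold change of 0.30 (adjusted p = 0.0229). That call was lost without Control 1 (adjusted p = 0.0731), Control 3 (0.0626), D-gal 1 (0.0728) or D-gal 2 (0.0789), and 236 bases of Epha1 overlap Zyx on the other strand.

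In the other direction, Ephb3, a receptor of B ephrins (chr16:21204755-21223305, plus strand), had 1097, 1109 and 1057 normalized counts in the controls and 861.9, 810.3 and 872.4 under D-gal, a log2 fold change of -0.36 (SE 0.05, adjusted p = 0.00114). Epha4, which binds ephrins of both classes, fell from 1050 ± 62.1 to 789.1 ± 51.9 normalized counts (SD, n = 3), with a log2 fold change of -0.41 (adjusted p = 0.00253). Neither gene's groups overlapped. Ephb6, which lacks kinase activity, also had all D-gal libraries below all controls, but its log2 fold change of -0.29 did not pass the test (adjusted p = 0.0569). Ephb4, the usual receptor of Efnb2, had 2197 ± 59.7 and 2036 ± 110 normalized counts (SD, n = 3) with an adjusted p of 0.11, and passed only when D-gal 3 was left out (0.0472). Epha7 and Ephb2 had log2 fold changes of -0.07 each, and their groups overlapped.

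The receptors of Slits and netrin gave few reads or small changes. Robo3, a Robo receptor that in mammals does not bind Slits (chr9:37415669-37433163, minus strand), had 25.27, 30.19 and 26.26 normalized counts in the controls and 12.34, 13.1 and 10.84 under D-gal. It fell by 55.3%, a log2 fold change of -1.16 (SE 0.25, adjusted p = 0.00817), with no overlap between groups, but DESeq2 gave an adjusted p of 0.065. Robo1, which does bind Slits, had 17.8 ± 3.54 and 19.2 ± 9.98 normalized counts (SD, n = 3), with an adjusted p of 0.881, and Robo2 and Robo4 had 0 counts throughout. Neo1, neogenin, fell from 3963 ± 58.5 to 3424 ± 151 normalized counts (SD, n = 3), with a log2 fold change of -0.21 (adjusted p = 0.00464). Unc5b (chr10:60762610-60831581, minus strand) had 4511, 4538 and 4394 normalized counts in the controls and 4703, 4750 and 4766 under D-gal. All D-gal libraries were higher, yet the log2 fold change of 0.08 (SE 0.03) did not pass the edgeR test (adjusted p = 0.0682) and passed limma on log2(FPKM + 1) (0.0189). Unc5c had 55.1 ± 20.9 and 36.4 ± 13.5 normalized counts (SD, n = 3) with an adjusted p of 0.241, and Dcc and Unc5d had 0 counts in every library.

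**Figure D1:**
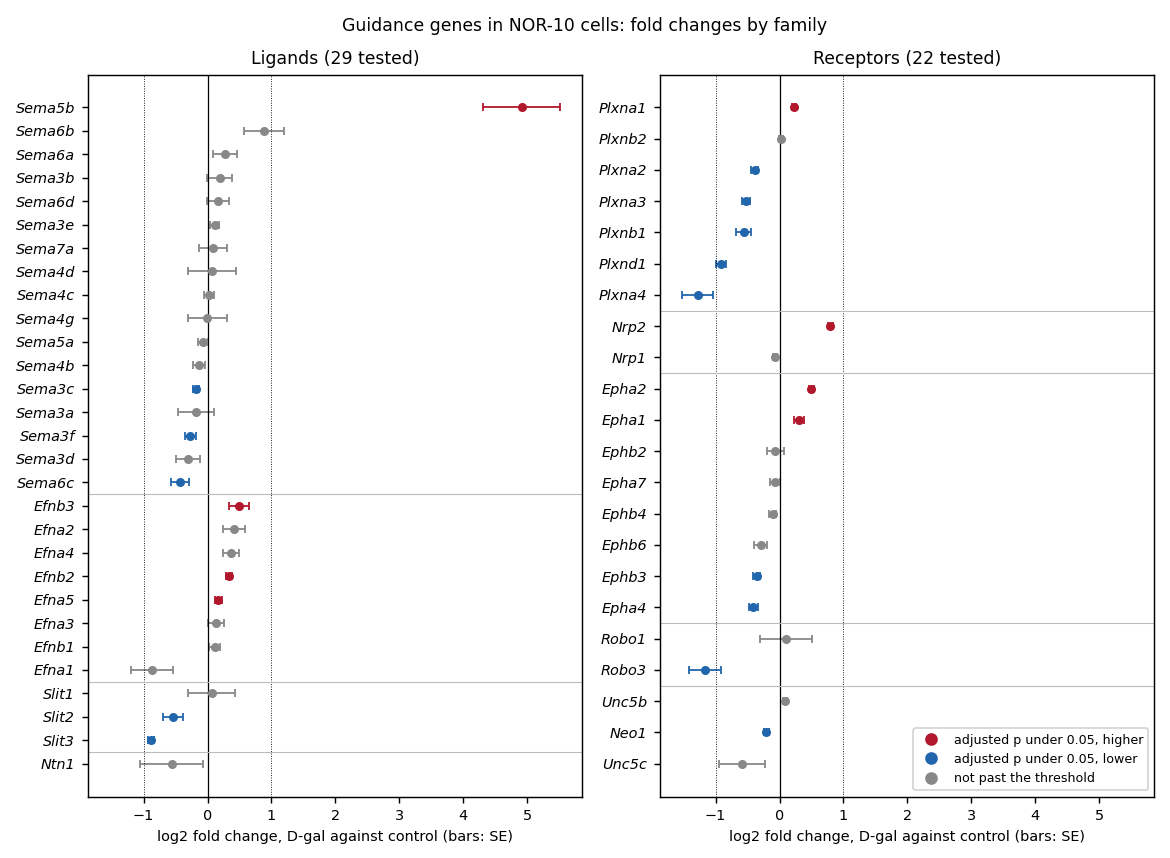
Log2 fold change of D-gal against control (horizontal axis) for each of the 29 ligands and 22 receptors tested, grouped by family, with bars for the SE. Red points passed an adjusted p under 0.05 and were higher, blue ones passed and were lower, grey ones did not pass, and dotted lines stand at a log2 fold change of 1 and -1; Sema5b stands alone at 4.91.

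Among the ligands, Sema5b, a transmembrane semaphorin with thrombospondin repeats (chr16:35541145-35664732, plus strand), had the largest change. Its raw counts were 0, 8 and 2 in the controls and 53, 81 and 109 under D-gal, or 0, 6.53 and 2.02 against 59.5, 88.5 and 131.3 normalized counts. The log2 fold change was 4.91 (SE 0.60, adjusted p = 0.000561), and it was 6.44 without Control 2 (adjusted p = 0.00126), so the size of the rise depends on a few control reads. Since the gene passed the filter only through the group where it is high, these values are given as a description of its counts. Even under D-gal its level per length was low, at 0.50 to 1.12 RPKM (counts per kb of merged exons, scaled to the library total). The related Sema5a had 242.7 ± 8.09 and 231.1 ± 8.83 normalized counts (SD, n = 3), with an adjusted p of 0.55.

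Of the 20 semaphorins 17 were tested, 1 was higher, which was Sema5b, and 3 were lower, and the median log2 fold change of the 17 was 0.02. The share called was 23.5%, below the 34.8% of all genes tested. Sema3c, a secreted class 3 semaphorin (chr5:17574281-17730268, plus strand), had 5476, 5675 and 5785 normalized counts in the controls and 5240, 4708 and 4987 under D-gal. All D-gal libraries were lower, by a log2 fold change of -0.18 (SE 0.04, adjusted p = 0.0155), and the call was lost without Control 3 (0.052). Sema3f, another class 3 semaphorin, fell from 741.1 ± 50.3 to 616.2 ± 51.3 normalized counts (SD, n = 3), with a log2 fold change of -0.27 (adjusted p = 0.0333). Its call was lost without Control 1 (0.0623), Control 2 (0.103), D-gal 2 (0.106) or D-gal 3 (0.0821). Sema6c, a transmembrane semaphorin, fell from 126.3 ± 7.54 to 93 ± 14.4 normalized counts (SD, n = 3), with a log2 fold change of -0.44 (adjusted p = 0.044). It was called without D-gal 1 but in no other fit with a library left out, with adjusted p of 0.0965 without Control 1, 0.0662 without Control 2, 0.112 without Control 3, 0.11 without D-gal 2 and 0.124 without D-gal 3. Sema6b, with 30.4 ± 8.69 and 56.2 ± 19.9 normalized counts (SD, n = 3), had an adjusted p of 0.0633 and passed only without D-gal 1 among the fits with a library left out (log2 fold change 1.10, adjusted p = 0.0333). None of the 4 class 4 semaphorins tested was called.

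Of the 8 ephrins, all tested, 3 were called higher and 0 lower, and 7 of the 8 log2 fold changes were positive. With 37.5% called, the ephrins stood near the 34.8% called among all genes tested (16.9% higher, 17.8% lower). Among all 13407 genes tested, 6785 log2 fold changes were positive. Efnb2, a transmembrane ephrin known for its part in arteries and in mesenchyme (chr8:8617434-8660773, minus strand), had 1211, 1233 and 1170 normalized counts in the controls and 1478, 1506 and 1601 under D-gal. It rose by 26.8%, a log2 fold change of 0.34 (SE 0.05, adjusted p = 0.000982), with no overlap. Efnb3 rose from 52.6 ± 0.386 to 74 ± 8.85 normalized counts (SD, n = 3), with a log2 fold change of 0.49 (adjusted p = 0.0386). Efna5 (chr17:62604184-62881317, minus strand), a GPI-anchored ephrin, had 797.4, 733.6 and 806.9 normalized counts in the controls and 855.2, 878 and 898.9 under D-gal, a log2 fold change of 0.17 (SE 0.06, adjusted p = 0.0472).

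These last ephrin calls stood close to the threshold. The call of Efna5 was lost whichever library was left out, with adjusted p of 0.0741, 0.134 and 0.0596 without Control 1, 2 and 3 and 0.067, 0.105 and 0.126 without D-gal 1, 2 and 3. That of Efnb3 was lost without Control 1, 2 or 3 (0.0913, 0.0908 and 0.0912), D-gal 2 (0.117) or D-gal 3 (0.101), and DESeq2 called neither Efna5 (0.126) nor Efnb3 (0.19). Efna2 and Efna4 did not pass, at adjusted p of 0.102 and 0.0555, but Efna2 passed without Control 1 (0.0264) and Efna4 without D-gal 2 (0.0102). Efna1 was the only ephrin with a negative log2 fold change: all D-gal libraries, from 19.3 to 35.9 normalized counts, lay below the controls, from 37.5 to 69.7, without passing the test (adjusted p = 0.0765).

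Both abundant Slits fell. Slit3 (chr11:35121224-35708507, plus strand) had 2089, 2114 and 2049 normalized counts in the controls and 1154, 1068 and 1171 under D-gal. The replicates lay close together and the groups far apart, and Slit3 fell by 45.7%, with a log2 fold change of -0.88 (SE 0.05, adjusted p = 1.07e-05), the smallest p among the ligands. Slit2 (chr5:47983138-48307733, plus strand) had 2285, 2314 and 2112 normalized counts in the controls and 1853, 1108 and 1654 under D-gal, a log2 fold change of -0.54 (SE 0.16, adjusted p = 0.0321). Its D-gal libraries spread widely, and the call was lost without Control 1 (0.0803), Control 2 (0.0842), Control 3 (0.0537) or D-gal 3 (0.0541). Slit1 was scarce, at 25 ± 8.88 and 25.9 ± 8.86 normalized counts (SD, n = 3), and did not change beyond its spread (adjusted p = 0.907).

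Ntn1 (chr11:68209364-68400823, minus strand) had 1381, 496.1 and 1324 normalized counts in the controls and 907.9, 278.5 and 980.8 under D-gal. Replicate 2 was the lowest library in each group and the groups overlapped, and the log2 fold change of -0.56 (SE 0.49) did not pass the test (adjusted p = 0.418). Sema3a (chr5:13125414-13602565, plus strand), a class 3 semaphorin that repels axons, also spread widely, though less than Ntn1, with 1880, 1115 and 2007 normalized counts in the controls and 1881, 1595 and 919.4 under D-gal. Its log2 fold change was -0.18 (SE 0.28, adjusted p = 0.66), and it turned to 0.06 without D-gal 3 (adjusted p = 0.869). Of the 31 guidance genes with a mean of at least 200 normalized counts, these 2 ranged over more than 2-fold within a group (6.45%), whereas 164 of 9207 such genes did so among all genes tested (1.78%). Both were singled out after their values were seen.

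**Figure D2:**
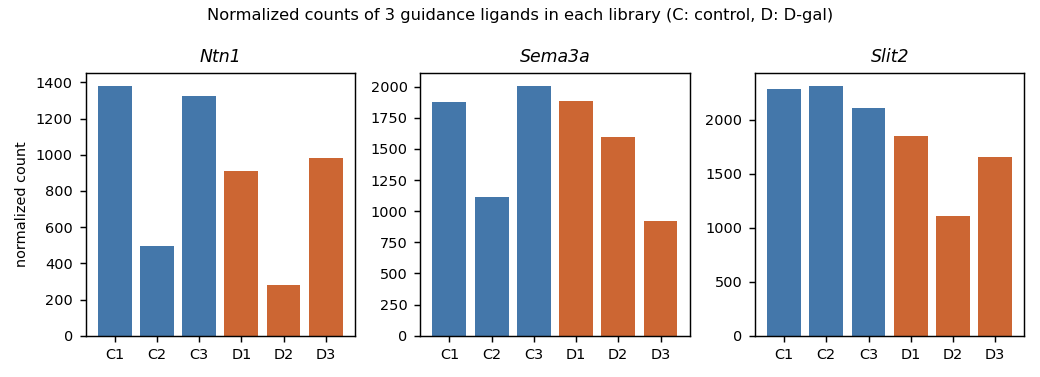
Normalized counts of Ntn1, Sema3a and Slit2 (vertical axis, starting at 0) in control libraries C1 to C3 (blue) and D-gal libraries D1 to D3 (orange), 1 bar per library. Ntn1 is lowest in replicate 2 of each group, Sema3a is low in C2 and D3, and Slit2 is lowest in D2 but below all controls in every D-gal library.

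**Figure D3:**
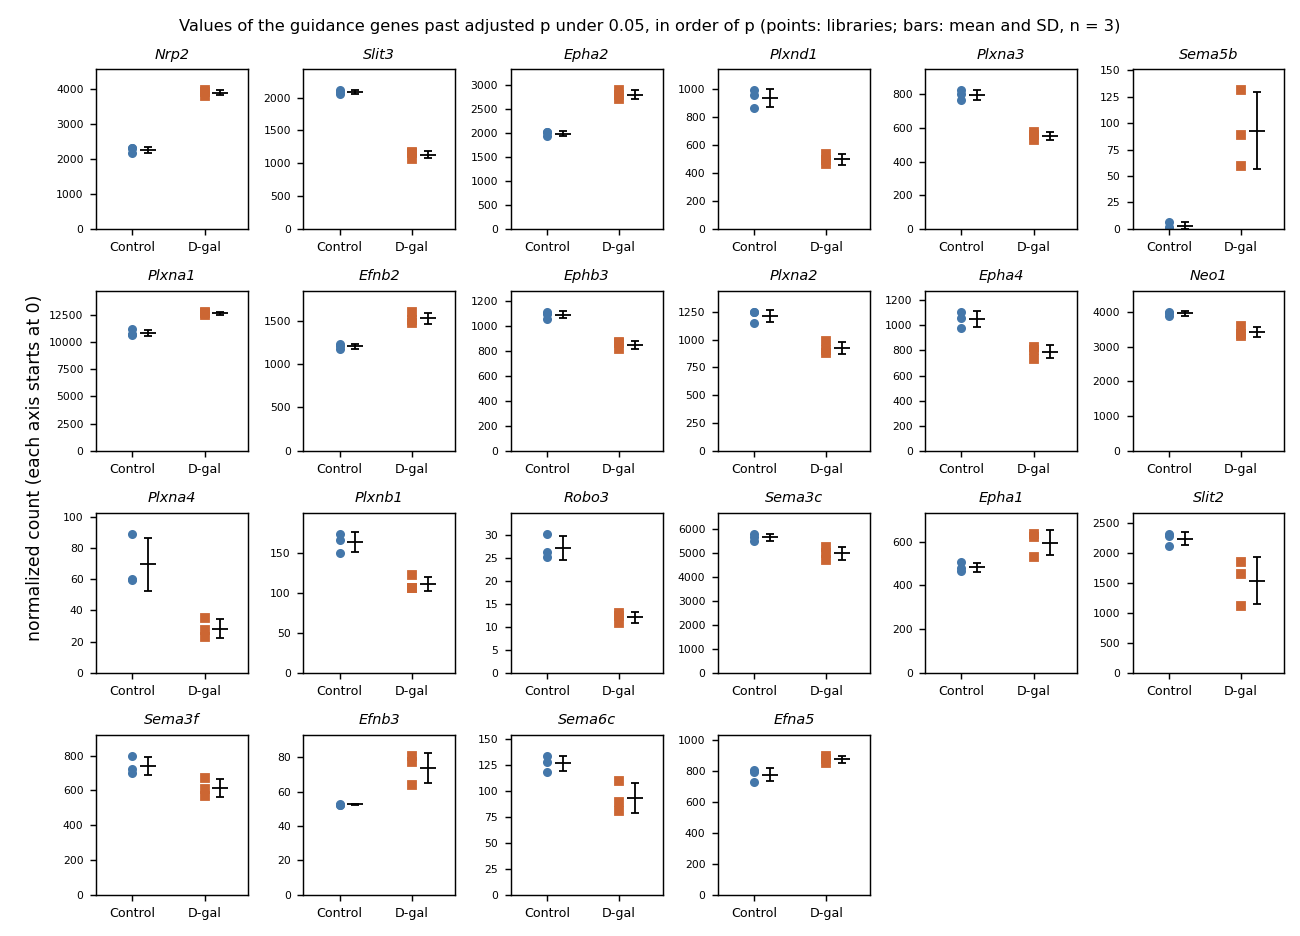
Normalized count (vertical axes, each starting at 0) of each of the 22 guidance genes with an adjusted p under 0.05, in order of p; points are the 3 libraries of each group, and the bars beside them the mean and SD. The groups are widely separated in Nrp2, Slit3, Epha2, Plxnd1 and Plxna3 and lie close together in Efna5, the last panel.

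Ligands and receptors were then set side by side. Of 29 ligands tested, 4 were higher (Sema5b, Efnb2, Efnb3 and Efna5) and 5 lower (Slit3, Sema3c, Slit2, Sema3f and Sema6c), that is 31% called, with a median log2 fold change of 0.07. Of 22 receptors tested, 4 were higher (Nrp2, Epha2, Plxna1 and Epha1) and 9 lower (Plxnd1, Plxna3, Ephb3, Plxna2, Epha4, Neo1, Plxna4, Plxnb1 and Robo3), that is 59.1% called, with a median of -0.16. The difference between these shares was not tested. Receptors had more reads, with a median of 819.3 normalized counts against 151.7 for ligands, and abundance moved with the share called: above the median of all genes tested (467.8 normalized counts) 43.4% of all genes were called, and below it 26.2%. Within the abundant genes 6 of 10 ligands (60%) and 10 of 14 receptors (71.4%) were called, and within the scarcer genes 3 of 19 ligands (15.8%) and 3 of 8 receptors (37.5%). The count of ligands called fell to 5 without Control 1 and to 4 without Control 2, Control 3 or D-gal 3, whereas that of receptors stayed between 12 and 14 in every fit run. The ligand median was 0.12 without Control 1 and 0.01 without D-gal 2, and the receptor median -0.25 without D-gal 3.

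By the form of the ligand, the secreted ones (class 3 semaphorins, Slits and Ntn1) had 0 higher and 4 lower of 10 tested, with a median log2 fold change of -0.22. The transmembrane ligands had 3 higher and 1 lower of 13 tested and a median of 0.11, and the GPI-anchored ligands 1 higher and 0 lower of 6 tested and a median of 0.15. The higher transmembrane ligands include Sema5b, which passed the filter only through its D-gal libraries. The shares called were 40%, 30.8% and 16.7% in this order, around the 34.8% of all genes tested (16.9% higher, 17.8% lower). Their differences were not tested. Of the secreted ligands called, only Slit3 was called whichever library was left out. The secreted ligands were also the more abundant, with a median of 786.7 normalized counts against 111.2 for the transmembrane and 115.2 for the GPI-anchored ones.

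**Figure D4:**
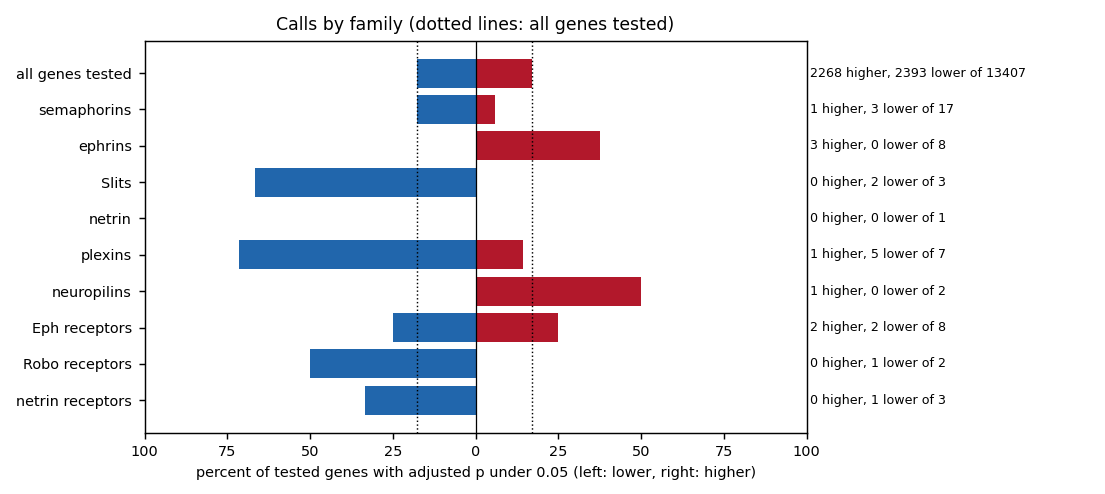
Percent of the tested genes of each family with an adjusted p under 0.05 (horizontal axis), lower under D-gal to the left in blue and higher to the right in red; dotted lines mark the shares over all 13407 genes tested, 17.8% lower and 16.9% higher. Plexins (5 lower of 7) and Slits (2 lower of 3) reach far to the left and ephrins (3 higher of 8) lie on the right only; several families hold 3 genes or fewer.

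To compare genes with each other, levels were divided by the length of the merged exons in kb and by the library total, which gives RPKM. Sema3c was the most abundant ligand transcript, at 45.2, 46.8 and 47.5 in the controls and 44.0, 39.8 and 42.1 under D-gal. On this length Slit3 followed at 20.3, 20.5 and 19.8 in the controls and 11.4, 10.6 and 11.6 under D-gal. Efna5 was at 11.7, 10.7 and 11.7 in the controls and 12.7, 13.2 and 13.5 under D-gal. Slit3 stood above Efna5 in every control library, and under D-gal their order depended on the length used.

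Plxnb2 and Plxna1, the most abundant receptor transcripts, stood above Sema3c, the most abundant ligand transcript. The middle of the order of mean levels depended on the genes counted. Over all 35 receptors the middle one, Plxnb1, was at 0.849, and over all 32 ligands the middle ones, Efnb3 and Efna1, were at 1.19 and 1.22. Over the 22 receptors tested the middle ones, Epha4 and Plxnd1, were at 6.78 and 5.84. Over the 29 ligands tested the middle one, Efna2, was at 2.52. Of the receptors Plxnb2 led at 106.4, 113.3 and 106.8 in the controls and 112.6, 114.2 and 113.7 under D-gal. Plxna1 followed at 69.7, 72.5 and 68.9 in the controls and 82.7, 85.0 and 84.5 under D-gal, and Unc5b at 42.5, 42.7 and 41.2 in the controls and 45.1, 45.9 and 45.9 under D-gal. The ranges of these 3 did not overlap. Summed over all 32 ligands the level was 165.9 ± 7.89 in the controls and 157.2 ± 8.42 under D-gal, with overlapping libraries, and over the 35 receptors 391.8 ± 6.62 and 419 ± 4.76 (SD, n = 3), with every D-gal library above every control. Receptor levels divided by ligand levels gave 2.37 ± 0.157 in the controls and 2.67 ± 0.163 under D-gal, and these libraries overlapped. These sums are led by Sema3c and by Plxnb2 and Plxna1, and no test was made on them.

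Such levels depend on the length used. With the transcript of the longest coding sequence, the mean level over all libraries was 57.5 for Sema3c, 18.2 for Slit3, 17.0 for Efnb2 and 12.2 for Efna5, and 132.1 for Plxnb2, 77.4 for Plxna1, 71.9 for Nrp1 and 46.8 for Unc5b, so Efnb2 then came next after Slit3, with Sema3f, Sema3a and Slit2 also above Efna5, and Nrp1 stood above Unc5b. With the length behind the deposited FPKM, the mean was 28.4 for Sema3c, 16.8 for Efnb2, 14.9 for Slit3, 11.5 for Efna4 and 11.4 for Efna5, so Slit3 was then behind Efnb2 and Efna5 behind Efna4, while Plxnb2 (95.1), Plxna1 (61.4) and Unc5b (46.9) kept their order. Slit2 moved most among the Slits, from 3.12 with the deposited length to 14.4 with the coding transcript (merged exons of 25433 bases, a deposited length of 35968 and a coding transcript of 7785).

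**Figure D5:**
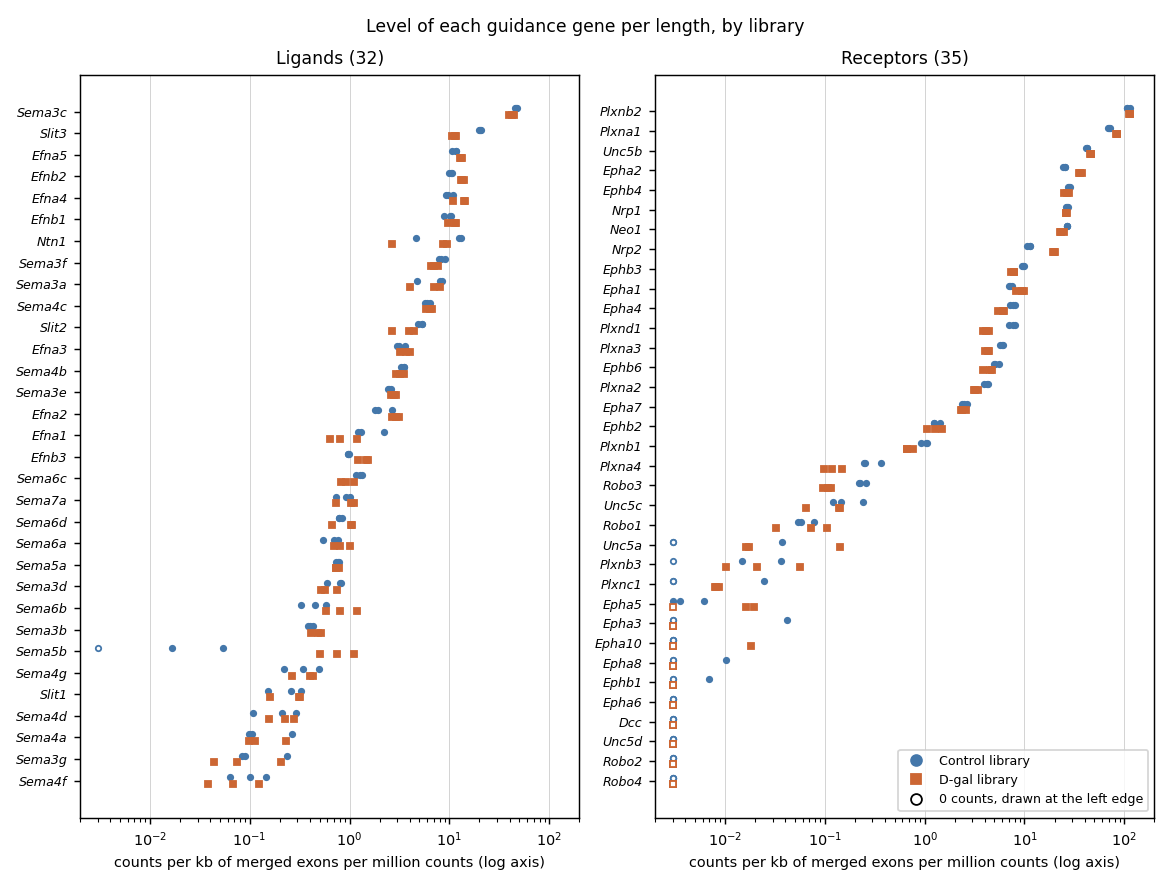
RPKM over merged exons, drawn as counts per kb and library total (horizontal log axis), of the 32 ligands and 35 receptors in each library; blue circles are control and orange squares D-gal libraries, and open symbols at the left edge stand for 0 counts. The receptors reach from Plxnb2, above 100, to 5 genes with 0 counts in all 6 libraries, and the ligands from Sema3c down to Sema4f.

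The 16 coding genes that were not tested had at most 28 counts in any library. Sema4a had 8 to 28 counts, Sema3g 3 to 18 and Sema4f 3 to 15, and these are the 3 ligands left out. Of the receptors, Unc5a had 0 to 9 counts, Epha3 0 to 7, Epha5 and Plxnb3 0 to 5 each, Plxnc1 0 to 4, Epha10 0 to 2, and Epha8 and Ephb1 0 to 1 each. Dcc, Epha6, Robo2, Robo4 and Unc5d had 0 counts in every library, which allows a level of up to 0.144 to 0.218 CPM (counts scaled to the library total), from 3 counts of each library's total and for counting error only. Differences in these genes were not detectable at this depth. The guidance genes tested are long, with a median span of 46307 bases against 22495 bases for genes tested.

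Other genes of the same pathways were called in both directions, and the counts stand beside 34.8% called among all genes tested, 16.9% higher and 17.8% lower. Of 34 listed extracellular partners (further netrins, repulsive guidance molecules, Flrt proteins, VEGFs and their receptors, adhesion molecules), 24 were tested, 5 were higher and 5 lower (41.7% called), near that background, with a median log2 fold change of 0.04. Flrt2, an adhesion molecule that binds Unc5 receptors, had 787.3 ± 16.7 normalized counts in the controls and 1460 ± 106 under D-gal (SD, n = 3), with a log2 fold change of 0.89 (adjusted p = 3.49e-05). Itga1, a collagen-binding integrin subunit, rose from 366.1 ± 16.2 to 777.6 ± 68.9, a log2 fold change of 1.09 (adjusted p = 4.95e-05). Flt1, a VEGF receptor, fell from 1097 ± 28.7 to 698.4 ± 32.3, a log2 fold change of -0.65 (adjusted p = 8.61e-05).

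Of 66 intracellular effectors (small GTPases and their regulators, collapsin response mediators, kinases and adaptors), 58 were tested, 15 were higher and 13 lower (48.3% called), with a median log2 fold change of -0.01. Rnd1, a small GTPase that binds plexins, rose from 759.9 ± 57.4 to 1565 ± 12.5 normalized counts (SD, n = 3), with a log2 fold change of 1.04 (adjusted p = 1.52e-05). Dpysl3, a collapsin response mediator protein, rose with a log2 fold change of 0.68 (adjusted p = 3.00e-05), as did Srgap3, a GTPase activator that binds Robo receptors, with 0.68 (adjusted p = 3.94e-05). Of 9 proteases that cut guidance proteins or related proteins, 8 were tested, 2 were higher and 4 lower (75% called), with a median log2 fold change of -0.26. Pcsk6, a proprotein convertase, rose with a log2 fold change of 0.60 (adjusted p = 2.40e-05), whereas the matrix metalloproteinases Mmp2 and Mmp14 fell with -0.51 and -0.47 (adjusted p = 2.69e-05 and 0.000268).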

How the data were processed

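RNA-seq was analysed for 3 control (PBS) and 3 D-gal libraries of NOR-10 cells, grouped and numbered by the sample titles. The deposited table held, for each gene and library, a raw count of reads given by the authors, and FPKM, which the authors computed from the counts, gene length and library total. Per the labels HISAT2 (version 2.0.4) was used, and per the study's methods reads were checked for quality and trimmed. The counter, strand setting and annotation are not given in the sources used here. Gene positions are those of the table, and exons are from GENCODE release M21 (GRCm38).

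Counts that passed filterByExpr were scaled by TMM and fitted with edgeR's quasi-likelihood test, without covariates (edgeR version 4.0.16 in R version 4.3.3), and p-values were adjusted by Benjamini-Hochberg over all 13407 genes. The thresholds were an adjusted p under 0.05 and, where stated, a log2 fold change of 1 or more in either direction. Each SE was taken as the log2 fold change over the root of F. An exact permutation of 3 against 3 libraries (10 splits, two-sided) cannot go below 0.1 and made no calls. Counts of replicate pairs differed by more than their sampling noise, with a chi-square of 6 to 9.42 for each degree of freedom, so each library counted once. Alternatives were DESeq2 (version 1.42.0), a block for the replicate number, RLE factors, no filter, a minimum of 10 counts per library, each library left out, limma (version 3.58.1) on log2(FPKM + 1) and an adjusted p under 0.01. Counts thinned to the smallest library (seed 7) and the length of the coding transcript were added after seeing the data. The fits were tested on simulated data.

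The guidance genes and all lists were chosen with earlier results of these data known. All called guidance genes are named. Values in every library are given for those past both thresholds, the 10 with the smallest p and the 3 most abundant ligands and receptors per length. Of each pathway list the 3 genes with the smallest p are named, and Vegfc is given beside Nrp2.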

Additional observations from a re-analysis of the deposited data

How the results depend on the processing

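Of the 51 guidance genes tested, 15 to 22 were called under the alternatives and 12 to 14 receptors, each within 1.5 times of the value reported. The count of ligands called was 3 at an adjusted p under 0.01 and between 4 and 9 with a library left out. Guidance genes past both thresholds were 1 with at least 10 counts in every library (Plxna4), 0 with limma on log2(FPKM + 1), whose pseudocount shrinks the fold changes of scarce genes, and 3 or 4 with a library left out. The median log2 fold change was 0.0368 for ligands and -0.0642 for receptors with limma, 0.0121 to 0.116 for ligands and -0.255 to -0.142 for receptors with a library left out. The log2 fold change of Sema3a turned to 0.0616 without D-gal 3 and was as low as -0.405 without Control 2. Deviations of same-numbered libraries from their group means correlated at -0.0137, -0.00651 and 0.0259, and not every library correlated best with its own number. These correlations are over all genes tested and cannot settle whether the replicate numbers pair the samples. With the replicate number as a block, 3982 of all genes were called against 4661, 21 guidance genes and 13 receptors were called, Ntn1 passed (log2 fold change -0.61, adjusted p = 0.00396) as did Efna4 (0.0382) and Sema6b (0.0225), and Efna5, Efnb3, Sema3f and Sema6c did not. Plxna1, Plxna2, Plxna3, Plxna4, Plxnb1, Plxnd1, Nrp2, Epha2, Epha4, Ephb3, Neo1, Slit3 and Efnb2 were called under each alternative. Sema5b is not counted with them, since it passed the filter only through its D-gal libraries. It was left out where 10 counts in every library were required. Of the 70 genes, 19 had too few counts to be tested, and 5 coding and 3 antisense genes among them had 0 counts in every library. Whether more depth would bring these 19 past the filter was not tested.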
